A study of Homo sapiens with 12 samples.

Results

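Proteins of the mitochondrial carrier family, encoded by the SLC25 genes, mostly sit in the inner mitochondrial membrane. There they exchange nucleotides, carboxylates, amino acids, cofactors and ions between the cytosol and the matrix. Their transcripts were followed here in HEK293T cells by RNA-seq. The members were all protein-coding genes of the deposited gene table whose symbol is SLC25A followed by a number, which gave 48 of the 58735 genes listed. They were ordered by the substrate each carrier is known to move. The classes were 4 ADP/ATP carriers, 13 other nucleotide and cofactor carriers, 4 carboxylate carriers, 9 amino acid carriers, 3 carnitine and glutathione carriers, 3 phosphate and iron carriers, 3 uncoupling-protein-like carriers and 9 carriers to which no substrate was assigned.

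A carrier of this family usually exchanges one substrate for another, so that ADP enters the matrix as ATP leaves, or malate crosses against oxoglutarate. The carriers are encoded in the nucleus and made in the cytosol. Those of the inner membrane are brought there by the TOM complex, small chaperones of the intermembrane space and the TIM22 complex. Several substrates have more than one carrier gene, and the paralogs often differ in the tissue where they are expressed.

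HEK293T is a line from human embryonic kidney that carries the SV40 large T antigen, and its genotype was given as WT. There were 4 treatment groups, each of 3 replicates that the series calls independent. The DMSO group received vehicle. The CEP group received AHL-Pu-1, a clickable electrophilic purine that labels protein cysteines in living cells, for 1 h. The 4SU group received 100 µM 4-thiouridine, a photoactivatable nucleoside that cells build into RNA, for 16 h, and the CEP+4SU group received both agents. The design text gives 25 µM CEP, whereas the treatment protocol on the labels gives the same number in mM. That protocol, with irradiation at 312 nm between the 4SU and CEP steps, is worded identically for all 12 libraries, so whether the DMSO and CEP cells were irradiated is not stated separately. The comparisons asked whether either agent, or both, altered transcript levels.

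Libraries held 16569114 to 24644734 counted fragments, of which the 48 members took 0.336 to 0.376%. CEP replicate 2 and CEP+4SU replicate 2 detected the fewest genes, with 22230 and 22627. The remaining 10 libraries each detected 24376 or more. The neurofilament and vimentin genes that HEK293 cells are known to express were present, with mean levels of 27.5 FPKM for NEFL, 35.8 FPKM for NEFM and 45.9 FPKM for VIM. The kidney lineage genes PAX2 and LHX1 stood at only 1.18 and 0.916 FPKM. FPKM is the fragment count of a gene scaled to its length and to the size of the library, and it was used for every comparison of levels between genes. Fold changes, standard errors (SE) and adjusted p-values come from edgeR's quasi-likelihood test on the counts, with Benjamini-Hochberg adjustment over the 17729 genes that passed the filter on low counts. A gene was called changed at an adjusted p of at most 0.05.

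Of the 48 members, 43 passed that filter. SLC25A36, which encodes a pyrimidine nucleotide carrier, was the only member called higher, and SLC25A11, the oxoglutarate/malate carrier, and SLC25A6, an ADP/ATP carrier, were the only members called lower. All 3 calls were made between CEP+4SU and DMSO. In that comparison 1.64% of all genes tested were called, against 3 of the 43 members. The 3 genes lie at chr3:140941830-140980961 on the plus strand (SLC25A36), chr17:4937130-4940251 on the minus strand (SLC25A11) and chrX:1386152-1392724 on the minus strand (SLC25A6) in GRCh38, the build of the deposited table.

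The promoters of these 3 genes are printed because theirs are the transcripts that were called. Each runs 5′ to 3′ over 300 bases and ends 50 bases after the RefSeq start (GRCh38.p14), at chr3:140941586-140941885 on the plus strand for SLC25A36, chr17:4939997-4940296 on the minus strand for SLC25A11 and chrX:1392064-1392363 on the minus strand for SLC25A6. Capitals mark any match, on either strand, to the GC box GGGCGG, the CCAAT box CCAAT, the ETS core CCGGAAG or TGCGCA, the repeat unit of the NRF1 motif. No match to one of these motifs overlapped a match to another in the 3 promoters. The RefSeq start need not be the gene start of the deposited table. The SLC25A6 stretch lies wholly inside the gene as placed in that table, and most of the SLC25A11 stretch lies inside its gene.
SLC25A36 promoter: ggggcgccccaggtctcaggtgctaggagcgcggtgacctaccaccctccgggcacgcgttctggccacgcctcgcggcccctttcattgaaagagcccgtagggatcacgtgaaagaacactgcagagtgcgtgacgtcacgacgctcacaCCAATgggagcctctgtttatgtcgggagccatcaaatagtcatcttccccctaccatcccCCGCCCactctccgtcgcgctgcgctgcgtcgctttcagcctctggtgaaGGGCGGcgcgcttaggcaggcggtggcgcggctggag
SLC25A11 promoter: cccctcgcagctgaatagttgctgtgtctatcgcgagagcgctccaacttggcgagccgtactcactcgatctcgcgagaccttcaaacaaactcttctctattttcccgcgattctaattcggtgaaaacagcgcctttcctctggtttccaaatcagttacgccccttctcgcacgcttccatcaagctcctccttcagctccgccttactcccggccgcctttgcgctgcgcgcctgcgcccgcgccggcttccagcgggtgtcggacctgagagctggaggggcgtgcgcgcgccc
SLC25A6 promoter: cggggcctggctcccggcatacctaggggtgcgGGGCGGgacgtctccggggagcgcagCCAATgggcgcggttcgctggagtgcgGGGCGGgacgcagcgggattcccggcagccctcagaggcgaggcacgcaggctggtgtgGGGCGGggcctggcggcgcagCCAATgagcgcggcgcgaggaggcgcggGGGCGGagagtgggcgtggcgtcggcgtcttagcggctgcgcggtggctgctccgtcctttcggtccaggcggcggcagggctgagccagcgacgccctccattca

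The SLC25A36 promoter held 2 GC boxes and 1 CCAAT box, the SLC25A6 promoter held 4 GC boxes and 2 CCAAT boxes, and the SLC25A11 promoter held none of the motifs, so it carries no capitals. No ETS core or NRF1 repeat was found in any of the 3. Promoters were matched by symbol for 40 of the 48 members. SLC25A2, SLC25A16, SLC25A30, SLC25A32, SLC25A35, SLC25A37 and SLC25A41 were among those with no entry. Among the 40, the GC box was present in 28 (70%, against 45.03% of 34961 promoters of the same length), the CCAAT box in 19 (47.5% against 34.6%), the ETS core in 8 (20% against 10.3%) and the NRF1 repeat in 5 (12.5% against 8.25%). The median GC content was 66.2% over the members' promoters and 58.7% over all. Members entered with 1 promoter per symbol, whereas the 34961 promoters were not reduced in that way, so the sets may differ in make-up. These are matches of letters, described without a test.

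The family was dominated by its ADP/ATP carriers. Mean levels over the 12 libraries ran from 491 FPKM for SLC25A5 to 0.0109 FPKM for SLC25A31. Of the members, 6 averaged at least 50 FPKM, 13 lay between 10 and 50 FPKM, 19 lay between 1 and 10 FPKM, and 10 were under 1 FPKM. SLC25A5 alone supplied 39.96% of the family's summed FPKM and SLC25A6 a further 17.1%. SLC25A5 and SLC25A6 were separate in every library, since the lowest SLC25A5 value, 457 FPKM, was above the highest SLC25A6 value, 256 FPKM. The next 4 genes, SLC25A1 (65.2 FPKM), SLC25A39 (56.4 FPKM), SLC25A3 (51.3 FPKM) and SLC25A11 (51.2 FPKM), overlapped one another across libraries and are not ordered beyond their spread. Among the 38 members at 1 FPKM or more, the coefficient of variation over the 12 libraries was 5.77 to 20.3%, with a median of 10.8%, and was highest for SLC25A10, the dicarboxylate carrier.

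**Figure D1:**
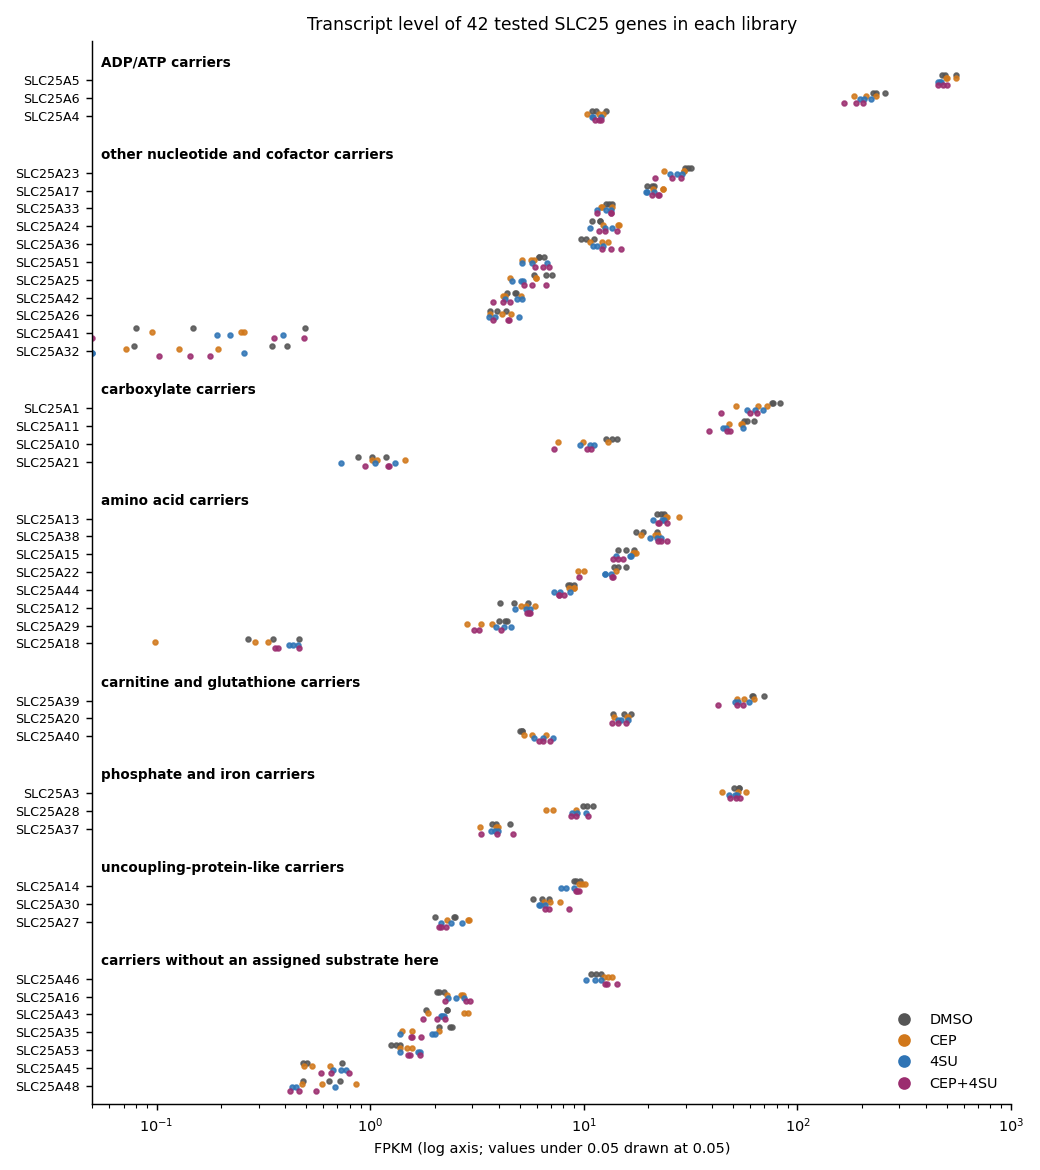
FPKM of 42 of the 43 tested members (x axis, log scale) in each of the 12 libraries, grouped by substrate class and ordered by mean level within a class. Each point is 1 library coloured by treatment group; SLC25A5 and SLC25A6 stand above every other member, and SLC25A41 and SLC25A32 scatter most among the lowest.

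Because of their low counts, 5 members were not tested. They were SLC25A31, the germ-cell ADP/ATP carrier (0 to 2 counts per library), SLC25A2, an ornithine carrier (0 to 4), SLC25A52, an NAD carrier (0 to 4), SLC25A47, a liver-enriched carrier (0 to 7), and SLC25A34, without an assigned substrate (1 to 20). A count of 0 allows up to 3 counts, which is 0.122 to 0.181 CPM depending on the library. SLC25A31 and SLC25A2 had 0 counts in all CEP libraries, and SLC25A52 and SLC25A47 had 0 counts in all DMSO libraries, so no fold change is given for any of them.

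The ADP/ATP carriers exchange cytosolic ADP for matrix ATP. SLC25A5, the form of dividing cells, stood at 550, 473 and 490 FPKM in the DMSO libraries, 497, 503 and 550 FPKM with CEP, 470, 457 and 464 FPKM with 4SU, and 457, 499 and 481 FPKM with both. The CEP and CEP+4SU libraries overlapped DMSO, whereas every 4SU library was below every DMSO and CEP library. The log2 difference of SLC25A5 was -0.07 between CEP+4SU and DMSO (SE 0.070, adjusted p = 0.569) and -0.13 between 4SU and DMSO (SE 0.070, adjusted p = 0.790), and neither passed. SLC25A6, the form expressed in many tissues, stood at 256, 226 and 233 FPKM in the DMSO libraries and at 202, 166 and 188 FPKM with both agents. Every CEP+4SU value was below every DMSO value. With CEP alone SLC25A6 stood at 232, 184 and 210 FPKM, which overlapped DMSO, and with 4SU alone at 221, 205 and 196 FPKM, which did not. SLC25A6 fell by 0.36 on the log2 scale (SE 0.090, edgeR adjusted p = 0.0484, n = 3 per group) between CEP+4SU and DMSO, and its changes with CEP alone (-0.19, adjusted p = 0.268) and with 4SU alone (-0.21, adjusted p = 0.744) did not pass. SLC25A4, the form of heart and muscle, averaged 11.5 FPKM, and its log2 difference of 0.00 between CEP+4SU and DMSO had a 95% interval of -0.19 to 0.19. The difference in response between SLC25A6 and its paralogs was not tested. The summed level of the 4 ADP/ATP carriers was 755 ± 56.9 FPKM (SD, n = 3) in DMSO and 676 ± 4.75 FPKM with both agents, with no overlap between the libraries.

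Among the other nucleotide and cofactor carriers, SLC25A36 imports and exports pyrimidine nucleotides. Its levels were 9.68, 10.2 and 11.1 FPKM in DMSO, 10.7, 12.2 and 13.0 FPKM with CEP, 10.99, 12.3 and 11.6 FPKM with 4SU, and 12.2, 14.9 and 13.3 FPKM with both. All CEP+4SU libraries were above all DMSO libraries, and the means of the single-agent groups, 11.9 FPKM with CEP and 11.6 FPKM with 4SU, lay between, with libraries that overlapped DMSO. SLC25A36 rose by 0.38 on the log2 scale (SE 0.092, edgeR adjusted p = 0.0451, n = 3 per group) between CEP+4SU and DMSO, and stood at 0.21 with CEP alone (adjusted p = 0.233). Its paralog SLC25A33, also a pyrimidine nucleotide carrier, averaged 12.8 FPKM and differed by -0.04 (adjusted p = 0.857).

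The most abundant genes of that class were SLC25A23, an ATP-Mg/phosphate carrier, and SLC25A17, the peroxisomal carrier of CoA, FAD and NAD. SLC25A23 stood at 31.6, 30.7 and 29.7 FPKM in DMSO, 29.3, 29.6 and 23.8 FPKM with CEP, 28.7, 25.4 and 27.2 FPKM with 4SU, and 28.4, 21.6 and 25.9 FPKM with both. Every treated library was below every DMSO library, yet the difference for both agents (-0.28, SE 0.099, adjusted p = 0.122) did not pass the test. With each library's GC trend removed, SLC25A23 differed by 0.03 with CEP alone, -0.12 with 4SU alone and -0.11 with both. SLC25A17 ranged from 19.4 to 23.4 FPKM over all libraries and differed by 0.08 (adjusted p = 0.569). Of the 12 tested genes of the class, SLC25A36 was the only one called in any comparison, and the comparison that called it called 1.64% of all genes.

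SLC25A32, the folate and FAD carrier, had only 3 to 34 counts per library and a mean of 0.166 FPKM. In GENCODE 29, 69.7% of its exon bases lie within exons of AC012213.5, a protein-coding gene on the same strand, and 80.8% lie within exons of any other gene. AC012213.5 itself had 0 to 3 counts per library. How the authors' counting treated fragments that overlap more than one gene is not given in the sources used here, so the level of SLC25A32 is uncertain. SLC25A10 likewise shares 46.6% of its exon bases with AC139530.2, which had at most 1 count in a library. In all, 21 members share exon bases with another gene, and SLC25A51 and SLC25A52, both NAD carriers, share 10.2% and 27.2% of their 50-base stretches with each other. For SLC25A33, 20.7% of such stretches also occur in transcripts of other genes. The 40 pseudogenes named after members held at most 1.98% of the parent's count in any library, and the calls of SLC25A36, SLC25A11 and SLC25A6 remained when those counts were added. Opposite-strand neighbours also cover 9.14% of the exon bases of SLC25A11 (RNF167), and whether the counting used strand is not stated.

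The carboxylate carriers move citrate, malate, oxoglutarate and related acids. SLC25A11, the oxoglutarate/malate carrier of the malate-aspartate shuttle, stood at 62.3, 56.4 and 57.9 FPKM in DMSO, 54.7, 47.7 and 54.6 FPKM with CEP, 55.8, 44.7 and 46.3 FPKM with 4SU, and 46.6, 38.6 and 48.1 FPKM with both. Every treated library of SLC25A11 was below every DMSO library. SLC25A11 fell by 0.41 on the log2 scale (SE 0.098, edgeR adjusted p = 0.0455, n = 3 per group) between CEP+4SU and DMSO. Its differences with CEP alone (-0.17, adjusted p = 0.362) and 4SU alone (-0.27, adjusted p = 0.689) did not pass. With each library's GC trend removed, SLC25A11 differed by 0.03 with CEP alone, -0.20 with 4SU alone and -0.22 with both.

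SLC25A1, the citrate carrier that supplies cytosolic acetyl-CoA for lipid synthesis, was the most abundant of the class. It stood at 82.9, 76.6 and 75.7 FPKM in DMSO, 72.1, 51.8 and 65.6 FPKM with CEP, 68.7, 58.0 and 63.5 FPKM with 4SU, and 64.4, 44.0 and 59.7 FPKM with both. No treated library reached the DMSO range, but the difference of -0.48 for both agents (SE 0.12, adjusted p = 0.0519) did not pass the threshold. With each library's GC trend removed, SLC25A1 differed by 0.02 with CEP alone, -0.19 with 4SU alone and -0.17 with both. The dicarboxylate carrier SLC25A10 averaged 13.5 FPKM in DMSO and 9.47 FPKM with both (-0.51, adjusted p = 0.0900), and the oxoadipate carrier SLC25A21 averaged 1.02 and 1.13 FPKM (0.13, adjusted p = 0.786). Summed over the class, the level was 152 ± 7.56 FPKM in DMSO, 127 ± 16.6 FPKM with CEP, 124 ± 11.8 FPKM with 4SU and 111 ± 17.7 FPKM with both (SD, n = 3 each). In bulk RNA, a smaller share of cells expressing these genes and less transcript per expressing cell cannot be told apart.

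**Figure D2:**
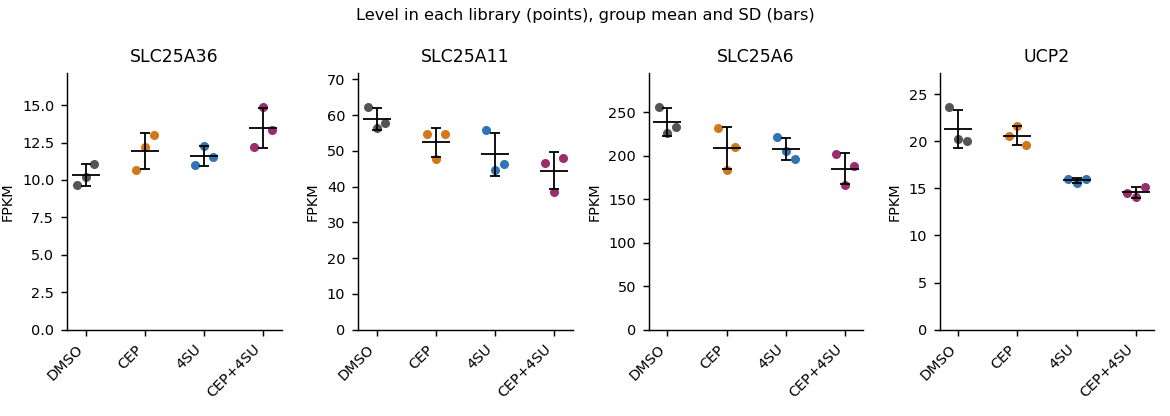
FPKM (y axis, from 0) of SLC25A36, SLC25A11, SLC25A6 and the related carrier gene UCP2 in each library (points), with the mean and SD of the 3 libraries of each group (bars). In all 4 panels the CEP+4SU points do not overlap the DMSO points, higher for SLC25A36 and lower for the other 3 genes. All 4 genes are shown because they were called in that comparison, so this separation is not further support.

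Carnitine and glutathione carriers bring in fatty acyl groups for oxidation and glutathione for redox control. SLC25A39, a glutathione carrier, stood at 69.4, 60.9 and 61.7 FPKM in DMSO, 62.6, 51.9 and 56.4 FPKM with CEP, 59.5, 51.2 and 52.8 FPKM with 4SU, and 55.3, 42.5 and 52.1 FPKM with both. The difference for both agents was -0.36 (SE 0.098, adjusted p = 0.0654). Its paralog SLC25A40 differed in the other direction, from a mean of 5.09 FPKM in DMSO to 6.52 FPKM with both (0.36, SE 0.11, adjusted p = 0.0812). Neither passed the test, and the difference between the paralogs was not tested. The carnitine/acylcarnitine carrier SLC25A20 ranged from 13.6 to 16.6 FPKM over all libraries, with overlapping groups (-0.06, adjusted p = 0.784).

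None of the 8 tested amino acid carriers was called in any comparison. With 0 to 1.64% of all genes called, 0 of 8 is near that share. The aspartate/glutamate carrier SLC25A13 ranged from 21.0 to 28.0 FPKM and the glycine carrier SLC25A38 from 17.5 to 24.4 FPKM. With both agents SLC25A13 differed by 0.01 (95% interval -0.16 to 0.19) and SLC25A38 by 0.25 (SE 0.098, adjusted p = 0.154). The SLC25A38 means were 19.5 ± 2.24 FPKM in DMSO, 20.7 ± 1.92 FPKM with CEP, 21.7 ± 1.32 FPKM with 4SU and 23.2 ± 1.14 FPKM with both. The summed level of the class was 90.9 ± 2.73 FPKM in DMSO and 90.1 ± 3.73 FPKM with both.

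The phosphate carrier SLC25A3, which feeds ATP synthase, stood at 53.3, 50.4 and 53.2 FPKM in DMSO, 52.4, 44.3 and 57.5 FPKM with CEP, 48.0, 51.9 and 51.2 FPKM with 4SU, and 51.3, 53.9 and 48.5 FPKM with both. The 4 groups overlapped, and the difference for both agents was -0.03 (95% interval -0.20 to 0.14). The iron carrier SLC25A28, a mitoferrin, stood at 11.04, 10.3 and 9.87 FPKM in DMSO and at 9.16, 6.65 and 7.17 FPKM with CEP. All 3 CEP libraries were below DMSO, but the difference (-0.44, SE 0.13, adjusted p = 0.173) did not pass. With each library's GC trend removed it was -0.27 (SE 0.12, adjusted p = 0.554). With both agents SLC25A28 stood at 8.69, 9.23 and 10.4 FPKM and overlapped DMSO. The other mitoferrin, SLC25A37, averaged 3.87 FPKM and differed by -0.03 (adjusted p = 0.915) with both agents.

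Among the uncoupling-protein-like carriers, SLC25A14 ranged from 7.85 to 10.1 FPKM and SLC25A30 from 5.81 to 8.51 FPKM over the 12 libraries. Neither they nor SLC25A27 (mean 2.40 FPKM) was called, with differences of 0.01, 0.21 and -0.10 between CEP+4SU and DMSO, where 1.64% of all genes were called. Of the 7 tested carriers without an assigned substrate, SLC25A46, an outer-membrane member linked to mitochondrial shape, was the most abundant. It stood at 11.96, 11.4 and 10.8 FPKM in DMSO, 12.4, 13.0 and 13.6 FPKM with CEP, 10.3, 11.99 and 11.3 FPKM with 4SU, and 12.6, 14.3 and 12.8 FPKM with both. All 6 libraries with CEP were above all 6 without it, by 0.23 on the log2 scale averaged over 4SU (SE 0.059, adjusted p = 0.0662), which did not pass. SLC25A46 has 32.1% GC in its longest transcript, and with each library's GC trend removed the difference was 0.03 (SE 0.047, adjusted p = 0.851). SLC25A16 followed at a mean of 2.47 FPKM and differed by 0.32 with both agents (adjusted p = 0.145).

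**Figure D3:**
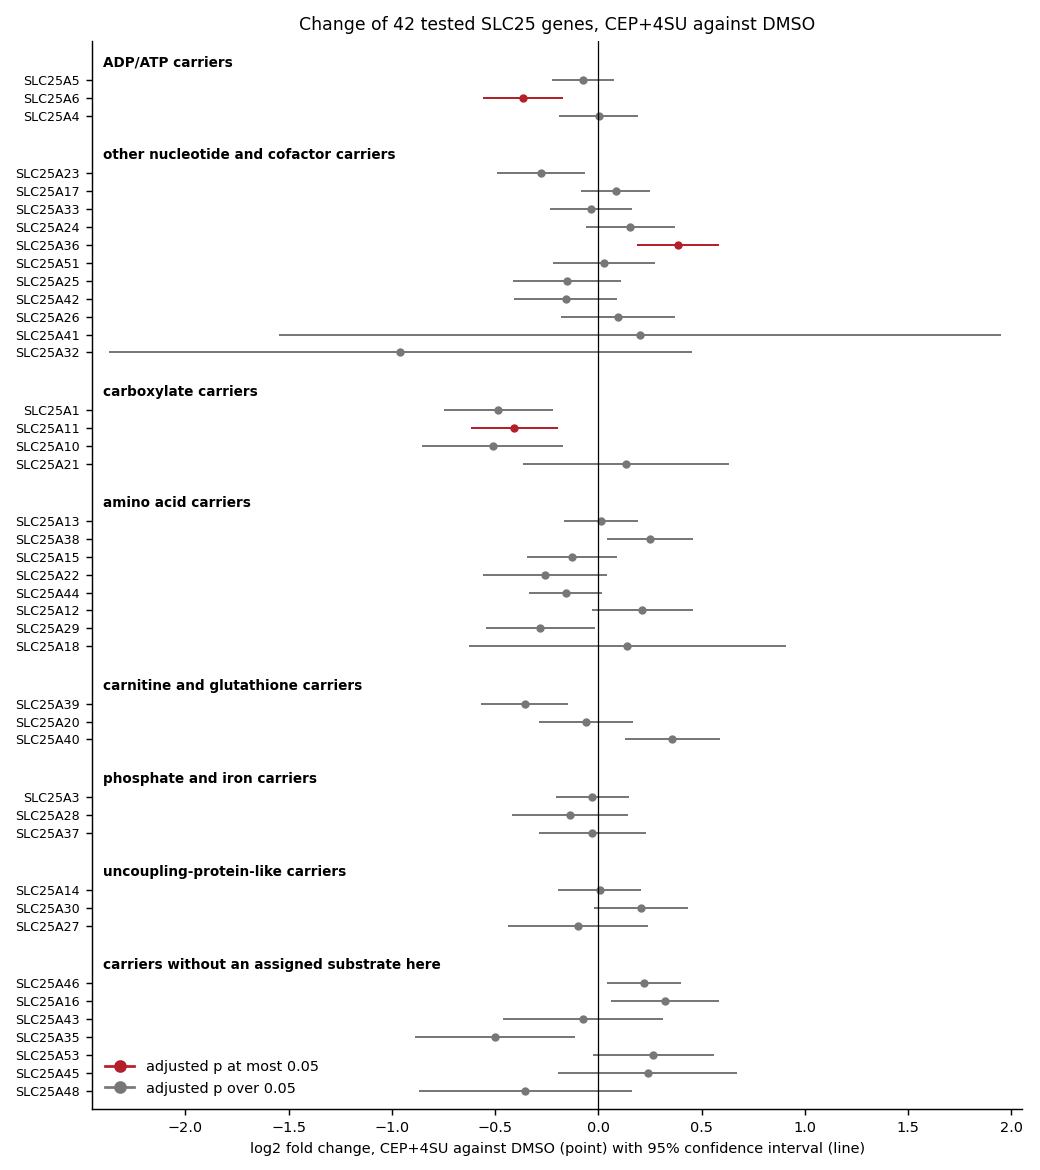
Log2 fold change between CEP+4SU and DMSO (x axis) of 42 of the 43 tested members by class, with the point at the estimate and the line spanning its 95% confidence interval. SLC25A36 (0.38), SLC25A11 (-0.41) and SLC25A6 (-0.36), in red, passed an adjusted p of 0.05; SLC25A32 and SLC25A41 have the widest intervals.

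**Figure D4:**
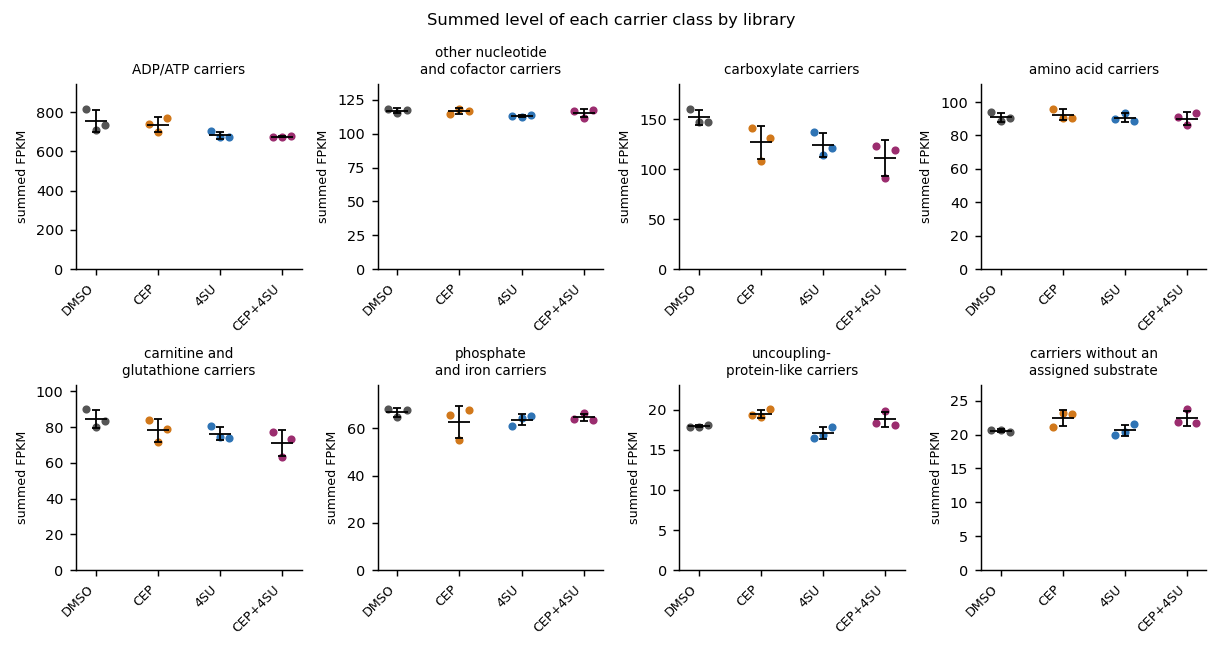
Summed FPKM of each of the 8 carrier classes (y axis, from 0) in each library (points), with the mean and SD of the 3 libraries of each group (bars). The carboxylate carriers run from 152 FPKM in DMSO to 111 FPKM with both agents, while the amino acid carriers stand at 90.9 and 90.1 FPKM.

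Across all members, differences were small. Between CEP+4SU and DMSO, 19 of the 43 tested members were above 0 and 24 below, with a median log2 difference of -0.04 against 0.00 over all genes tested. The median size of the difference, regardless of sign, was 0.16 for the members and 0.19 for all genes. At an unadjusted p under 0.05, 13 members passed (5 higher, 8 lower), which is 13 of 43 against 21.4% of all genes. DESeq2, which gave an adjusted p for 39 of the 43, called 7 members in this comparison and 9.21% of all genes with an adjusted p. Limma on log2 FPKM called 0 members and 0.118% of all genes.

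With CEP alone, edgeR and limma each called 0 of the 43 members, and 0.0564% of all genes were called by edgeR and 0.00564% by limma. DESeq2 called 0 of the 33 members to which it gave an adjusted p, against 2.62% of all such genes. At an unadjusted p under 0.05, 4 members were higher and 7 lower, against 18.6% of all genes. The smallest p-values belonged to SLC25A28 (described above), the basic amino acid carrier SLC25A29 (-0.35, adjusted p = 0.192) and the glutamate carrier SLC25A22 (-0.39, adjusted p = 0.195), none of which passed. SLC25A29 averaged 4.20 FPKM in DMSO and 3.28 FPKM with CEP.

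With 4SU alone, edgeR and limma also each called 0 members, and edgeR called 0.00564% and limma 0% of all genes. DESeq2 gave an adjusted p for only 12 of the 43 members and called 0 of them, against 0.601% of all such genes, so it makes no call on the other 31, which include SLC25A10, SLC25A25 and SLC25A40. At an unadjusted p under 0.05, 1 member was higher and 6 were lower, against 6.50% of all genes. The smallest p-values were those of the ATP-Mg/phosphate carrier SLC25A25 (-0.41, adjusted p = 0.612), SLC25A40 (0.34, adjusted p = 0.643) and SLC25A11. SLC25A25 averaged 6.53 FPKM in DMSO, 4.94 FPKM with 4SU and 5.87 FPKM with both. The CEP, 4SU and CEP+4SU comparisons share the same 3 DMSO libraries.

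Averaged over the absence and presence of 4SU, CEP gave 0 calls among the members by edgeR (0.276% of all genes), 3 by DESeq2 (SLC25A29, SLC25A36 and SLC25A46, against 12.1% of all genes with an adjusted p) and 0 by limma (0.107% of all genes). At an unadjusted p under 0.05, 5 members were higher and 8 lower, against 24.3% of all genes. The smallest p-values were those of SLC25A46, SLC25A29 (-0.32, adjusted p = 0.0719) and SLC25A36 (0.22, adjusted p = 0.0810). Averaged over the absence and presence of CEP, 4SU gave 0 calls by edgeR (0.558% of all genes), 1 by DESeq2 (SLC25A11, against 2.43% of all genes with an adjusted p) and 0 by limma (0.164% of all genes), with 3 members higher and 7 lower at an unadjusted p under 0.05 against 12.6% of all genes. The smallest p-values were those of SLC25A11 (-0.26, adjusted p = 0.103), SLC25A40 (0.24, adjusted p = 0.156) and SLC25A39 (-0.22, adjusted p = 0.171).

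No member showed an interaction of CEP and 4SU by edgeR, DESeq2 or limma (0 calls each; edgeR called 0% of all genes). At an unadjusted p under 0.05, 2 members were above 0 and 0 below, against 2.63% of all genes. They were SLC25A25 (0.50, 95% interval 0.14 to 0.87, adjusted p = 0.9998) and SLC25A28 (0.45, 95% interval 0.06 to 0.84, adjusted p = 0.9998); neither passed. For the called members the interaction terms were 0.01 for SLC25A36 (95% interval -0.26 to 0.28), 0.03 for SLC25A11 (-0.26 to 0.32) and 0.03 for SLC25A6 (-0.23 to 0.30).

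The members' changes moved with the GC content of their longest transcripts. SLC25A36 has 37.3% GC, SLC25A11 has 59.3% and SLC25A6 has 64.9%, against a median of 50% over the tested members and 48.5% over all genes tested. With CEP alone, 18 of the 22 members with at most 50% GC were above 0, against 3 of the 21 members over 50%. Over the 43 members, which share the same libraries, the log2 change with CEP averaged over 4SU had Pearson's r of -0.74 and Spearman's rho of -0.79 with GC content. With 4SU averaged over CEP these were -0.15 and -0.28. The libraries differed in the same property over all genes tested. Level relative to the mean of all libraries changed by 0.104 to 0.106 (log2) per 10 percentage points of GC in the DMSO libraries, by -0.169 to 0.0410 in the CEP libraries, by -0.0103 to 0.120 in the 4SU libraries and by -0.220 to 0.0360 in the CEP+4SU libraries. The lowest slopes were those of CEP replicate 2 and CEP+4SU replicate 2.

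When each library's GC trend was removed, 0 members were called between CEP+4SU and DMSO, against 1.26% of all genes. SLC25A6 then stood at -0.05 (adjusted p = 0.793), SLC25A11 at -0.22 (adjusted p = 0.0969) and SLC25A36 at 0.19 (adjusted p = 0.109). In the same fit the average 4SU effect gave 3 calls of 43, against 3.41% of all genes, all lower, namely SLC25A11 (-0.23, adjusted p = 0.00778), SLC25A39 (-0.18, adjusted p = 0.0146) and SLC25A1 (-0.19, adjusted p = 0.0217). Without CEP replicate 2 and CEP+4SU replicate 2, 1 member was called between CEP+4SU and DMSO (0.863% of all genes), and that was SLC25A1 in place of the 3 named above. Leaving out a single library gave between 0 and 6 calls in that comparison, in fits that called 0.0766 to 4.42% of all genes, with 0 when any 1 DMSO library, 4SU replicate 2 or 3, or CEP+4SU replicate 2 or 3 was left out, 1 without CEP replicate 3 (SLC25A36) or without 4SU replicate 1 (SLC25A11), and 6 without CEP replicate 1, CEP replicate 2 or CEP+4SU replicate 1. Across the 26 alternatives tried, SLC25A11 passed in 13 (adjusted p 0.000587 to 0.207), SLC25A36 in 13 (0.00255 to 0.200) and SLC25A6 in 11 (0.000714 to 0.793), always in the same direction.

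**Figure D5:**
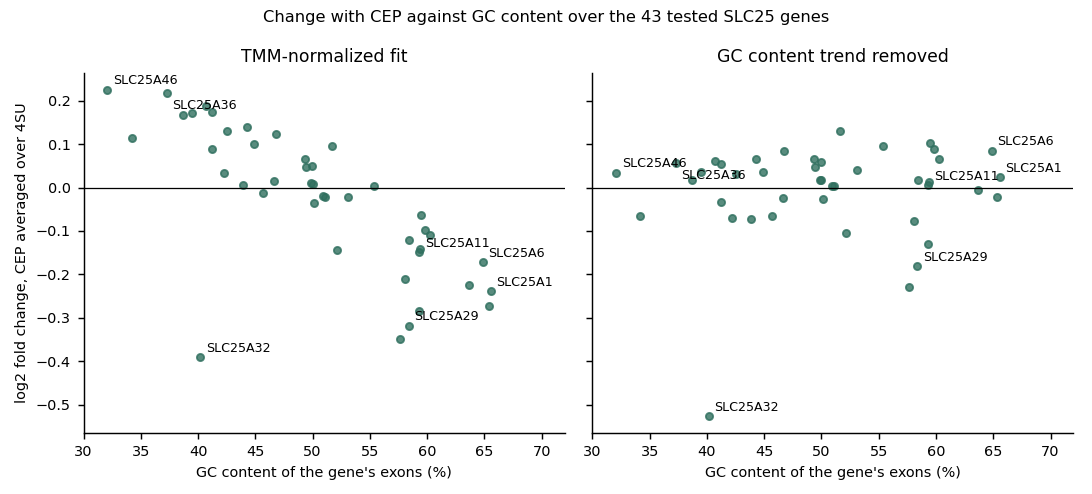
Log2 change with CEP averaged over 4SU (y axis) for the 43 tested members (points), before and after each library's GC trend was removed. The x axis, labelled as exons, is the GC content of a gene's longest transcript in percent. Before removal the points fall from left to right (Pearson's r of -0.74); after removal r is 0.08, as the removal is built to give.

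UCP2 encodes a carrier of the same family that is named by another symbol and so is not among the 48. It stood at 23.7, 20.3 and 20.02 FPKM in DMSO, 20.5, 21.7 and 19.6 FPKM with CEP, 16.0, 15.5 and 16.0 FPKM with 4SU, and 14.5, 14.1 and 15.2 FPKM with both. All 6 libraries with 4SU were below all 6 without it. UCP2 fell by 0.47 on the log2 scale with 4SU averaged over CEP (SE 0.061, edgeR adjusted p = 0.0026, 6 libraries against 6), and by 0.55 between CEP+4SU and DMSO (SE 0.086, adjusted p = 0.00639). The average 4SU effect passed in all 25 alternatives (adjusted p 9.49e-09 to 0.0259), including the GC removal, and the CEP+4SU difference in 25 of 26, the exception being the fit without DMSO replicate 1 (adjusted p = 0.0558). With 4SU alone the change of UCP2 (-0.44, adjusted p = 0.204) did not pass. Of the other relatives, MTCH1 was the most abundant at 68.7 FPKM and was not called (-0.18, adjusted p = 0.246, between CEP+4SU and DMSO). UCP2 was the only one of the 4 tested relatives to be called. The 2 comparisons that called it called 1.64% (CEP+4SU against DMSO) and 0.558% (4SU averaged over CEP) of all genes.

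The genes that bring carriers into the inner membrane were not called in any comparison (0 of 12). Only 0 to 1.64% of all genes were called in the same comparisons, so 0 of 12 is near that share. TOMM20, a receptor of the TOM complex, was the highest at 211 FPKM (0.05, adjusted p = 0.697, between CEP+4SU and DMSO). In that comparison 2 of the 12 were higher and 5 lower at an unadjusted p under 0.05, against 21.4% of all genes, and their median difference was -0.09. Other mitochondrial transporters, such as the outer-membrane channel VDAC1 at 120 FPKM (-0.10, adjusted p = 0.367), also gave 0 calls of 13, again near the 1.64% of all genes. At an unadjusted p under 0.05, 0 were higher and 3 lower, against the same 21.4%, and their median was -0.01. Of the markers of cell types other than HEK293, the melanocyte gene DCT was called between CEP+4SU and DMSO (1.23, adjusted p = 0.0455), at means of 0.249 and 0.582 FPKM. The summed level of the 4 melanocyte markers was 2.06 to 2.75 FPKM in DMSO and 1.64 to 2.75 FPKM with both agents, and TYR, which defines melanocytes, was at 0 in every library.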

How the data were processed

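Poly(A) RNA of 12 HEK293T libraries was sequenced by the authors, and per the labels the reads were processed with HISAT2 2.0.5 and featureCounts 1.5.0-p3 on GRCh38, with DESeq2 and GATK 4.1.1.0 also named in the submitters' processing notes. The deposited tables hold raw counts of fragments per gene, and FPKM computed by the authors with library sizes 0.981 to 1.03 times the count totals. From the counts, edgeR 4.0.16 (R 4.3.3, TMM factors, filterByExpr with a minimum count of 10, quasi-likelihood test, all 12 libraries in one fit of 4 groups) gave 6 contrasts: each treatment against DMSO, CEP averaged over 4SU, 4SU averaged over CEP, and their interaction. DESeq2 1.42.0, limma 3.58.1 on log2(FPKM + 1) and log2(FPKM + 0.1), other normalizations and filters, removal of GC or gene length trends, added pseudogene counts, fits of the compared groups alone and leaving out libraries were alternatives. Exon overlaps came from GENCODE 29, as did GC content, which was that of each gene's longest transcript. The model fits were run on simulated counts with changes planted in the libraries with CEP, and scored on CEP averaged over 4SU. The planted changes were larger than those of the called members. How well smaller changes, or those between CEP+4SU and DMSO, are recovered was not tested. Depth limits precision most for the members under 1 FPKM. Where the libraries of 2 groups are said not to overlap, the share of all genes with such separation was not computed.

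The members, the substrate classes and the related gene lists were chosen with earlier results of these data known. Genes were named by rule: members past an adjusted p of 0.05 in any comparison, the 2 most abundant members of each class, the 3 smallest p-values in a comparison without a call, members with pseudogenes, and in each related list the called genes and the most abundant one. SLC25A1, SLC25A10, SLC25A39, SLC25A40, the paralogs of called members and members with shared exons were named after their values were seen. One member is not reported here by name.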

Additional observations from a re-analysis of the deposited data

How the results depend on the processing

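No fit turned the direction of SLC25A36, SLC25A11, SLC25A6 or UCP2. All fits drew on the same 12 libraries, so an unchanged direction is not independent support. With the GC trend removed, SLC25A6 stood at only -0.05 (SE 0.064) between CEP+4SU and DMSO. Between CEP+4SU and DMSO, the 3 members called became 7 with DESeq2, 7 without the filter on low counts, 6 with only the compared groups in the fit, 0 with limma at either pseudocount, 0 with the GC trend removed, 0 to 6 without any 1 library, and 1 without CEP replicate 2 and CEP+4SU replicate 2 together, an alternative chosen after seeing the data. With CEP alone, 0 became 3 without the filter, against 1.86% of all genes. It became 0 to 3 without any 1 library, in fits that called 0.0219 to 6.61% of all genes (3 without CEP replicate 1, at 6.61%). With 4SU alone, 0 became 1 with only the compared groups (SLC25A1, against 0.557% of all genes). It stayed 0 without any 1 library, in fits that called at most 0.00549% of all genes. CEP averaged over 4SU went from 0 to 3 with DESeq2 (12.1% of all genes with an adjusted p) and 7 without the filter (4.06% of all genes). Without any 1 library it gave 0 to 8, in fits that called 0.115 to 11.8% of all genes. It gave 8 without CEP replicate 1 (11.8%) and 4 without CEP+4SU replicate 1 (6.16%). 4SU averaged over CEP went from 0 to 1 with DESeq2 (2.43% of all genes with an adjusted p) and 2 without the filter (0.873% of all genes). It gave 3 with the GC trend removed (3.41%) and 2 without CEP replicate 2 and CEP+4SU replicate 2 (1.23%). Without any 1 library it gave 0, in fits that called 0.0328 to 0.687% of all genes. The interaction gave 0 calls in all 25 alternatives. Between CEP+4SU and DMSO the share of all genes called was 9.21% with DESeq2, 3.46% without the filter and 3.36% with only the compared groups, against 1.64%. DESeq2 gave no adjusted p for 4 to 31 of the 43 members in the comparisons with DMSO, and those are not counted as lost calls. The causes were not tested. A paired fit, with the replicate number as a block, called 2 of 43 members with CEP alone (780 of 17729 genes). With both agents it called 8 members (1667 genes). Its average CEP effect gave 7 members (2269 genes), and its average 4SU effect gave 4 (336 genes). The main fit called 10, 290, 49 and 99 genes in these comparisons. When the GC trend was also removed, the paired fit called 0 members with both agents (321 genes). Its average 4SU effect then gave 3 members (660 genes). The evidence on pairing was mixed. Only 1 of 18 same-numbered pairs had a correlation of deviations over 0.1 (-0.05 to 0.14). However, 8 of 12 libraries correlated best with their own number, and the block raised the number of genes called. The main fit did not take the numbers as pairs, and whether same-numbered libraries shared a batch was not tested. Depth limits SLC25A32 and SLC25A41, whose counts reached at most 34 and 20.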
